A study of Mus musculus with 21 samples.

Results

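The data described here compare hearts of mice given renin by adeno-associated virus with hearts of mice given the null vector, all on a high-fat diet. The members were taken by title: 5 libraries labelled high-fat diet with renin and 6 labelled high-fat diet without virus, 11 of the 21 libraries of the series, each from 1 heart. The sample labels say no virus where the series description says null vector, and the second name is used below. The whole study concerns heart failure in which the ejection fraction is preserved, modelled by combining the high-fat diet with renin. All 11 mice were male C57BL/6NJ, 8 to 10 weeks old when assigned at random to 10 weeks of a diet in which fat supplied 60% of the energy. The renin group carried AAV-Renin and the controls a null vector, both given by retroorbital injection, and hearts were freeze clamped 6 weeks after injection under pentobarbital. The promoter of the vector, the tissue that makes the renin, blood pressure and the hour of collection are not given in the sources used here. The other 10 hearts, 4 with the null vector and 6 with renin on chow, entered the shared fit and the test of whether the renin difference depended on diet.

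Renin is the protease that cuts angiotensinogen to angiotensin I, and the converting enzyme then makes angiotensin II, which raises blood pressure and acts on heart and vessel cells through the type 1 receptor. Ventricular muscle under a raised load is known to return to parts of its fetal programme, with skeletal alpha-actin and beta-myosin heavy chain beside the adult cardiac forms, natriuretic peptides, and more connective tissue matrix. Healthy adult ventricle burns mainly fatty acids in abundant mitochondria, and the genes of that machinery are often lower in the failing heart.

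Library totals ran from 22.8 M to 29.3 M reads, 27.3 ± 2.42 M with renin (SD, n = 5) and 24.96 ± 1.26 M with the null vector (SD, n = 6). The totals did not separate by a two-sided exact permutation test (p = 0.0649, adjusted over 2 values 0.0779, smallest possible 0.00433). Mitochondrially encoded genes took 33.5% ± 2.27 of reads with renin and 36.0% ± 1.78 with the null vector (exact permutation p = 0.0779). The tissue label held in all 11 libraries: 8 ventricular cardiomyocyte markers summed to 48598 to 52856 CPM (read counts per M reads of the TMM-normalized library total) with renin and 52565 to 62002 CPM with the null vector. This marker list itself moved with the group, with 4 of 8 called lower and 1 higher and a median log2 fold change of -0.21. The lower calls numbered 3 or 4 with 1 library left out and 2 with the 11 libraries alone. The endogenous renin gene Ren1 had reads in 1 of 6 null-vector and 2 of 5 renin libraries, at most 5 reads in any, so heart RNA was no check on which animals received the vector. Replicate 3 of each group stood apart, with atrial markers summing to 813 CPM in the null-vector library and 607 CPM in the renin library. Their mean log2 CPM over the atrial markers was 5.80 and 5.44, against 1.25 to 2.18 in the other 9. Null-vector replicate 6 carried the lowest sample weight, 0.335, in limma voom with quality weights.

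With renin, 1696 of 15216 tested genes (11.1%) passed an edgeR adjusted p under 0.05, the threshold used throughout, and are termed called. Of these, 923 were higher (6.07%) and 773 lower (5.08%). An unadjusted p under 0.05 was found for 4026 of the tested genes. Most differences were small. Called genes had a median size of 0.37 on the log2 scale, and 134 of them rose and 43 fell by 2-fold or more. The median over all tested genes was -0.01. In 529 genes (3.48%) the 5 renin libraries did not overlap the 6 null-vector libraries, being above them in 297 (1.95%) and below in 232 (1.52%), and 468 of the 529 were called. These are values of bulk tissue, in which fewer cells of a type and less RNA per cell cannot be told apart. Without both libraries high in atrial markers 1800 genes were called, 1445 of them shared with the 1696, and without null-vector replicate 6 there were 1339, 1183 of them shared.

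The renin libraries were graded, and the count of calls rested on the more extreme ones. By a rule on size, abundance and separation of groups, 15 rises and 14 falls are named below with their values. The rule took only genes with no overlap between the groups, so for these genes the separation is part of the choice. Renin replicates 3 and 4 were the 2 renin libraries nearest the null vector in 14 of the 15 rises and 14 of the 14 falls. Renin replicate 1 was the most extreme in 13 of the rises and 8 of the falls. Without renin replicate 1, 2 or 5 the calls numbered 696, 934 or 784, and without replicate 3 or 4 they numbered 2036 or 2394. When only the 11 high-fat libraries were fitted, 549 genes were called, 324 higher and 225 lower, and 544 were among the 1696. Of the 111 called genes named with their values, 48 did not pass in that fit, and they are listed with the effects of the processing.

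A score of clock genes moved with the groups. The score is the mean log2 CPM of Dbp, Tef, Hlf, Per1, Per2, Per3, Nr1d1, Nr1d2 and Ciart minus that of Arntl, Npas2, Clock and Nfil3, genes that rise and fall over the day in opposite phase. It was 2.22, 2.99, 3.38, 3.27 and 2.96 log2 units in renin replicates 1 to 5 and 3.37, 3.55 and 3.68 in the null-vector group (lowest, median and highest of 6). Renin replicate 3 lay inside the null-vector range and the other 4 below it. The score was also lower with renin on chow, 3.21 ± 0.11 (SD, n = 6) against 3.82 ± 0.17 (SD, n = 4). With the score as a further term in the edgeR fit, edgeR called 0 genes, with 1009 at an unadjusted p under 0.05, and none of the 29 genes named by the rule passed. Their log2 fold changes in that fit were 24.97% (Nppb) to 85.7% (Cmtm8) of those without the score, with a median of 60.3%. Acta1 went from 3.91 to 3.02, Gdf15 from 2.46 to 1.34, Nppb from 2.01 to 0.50, Rcan1 from 1.47 to 0.45 and Scara5 from -1.03 to -0.45. The median of the hypertrophy list described next went from 0.73 to 0.40. The score and the renin group move together, and their parts cannot be told apart in this fit.

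Genes of hypertrophy and mechanical stress gave the highest share of higher calls among the gene lists. Of 24 tested members 17 were called higher (70.8%, against 6.07% of all tested genes) and 0 lower, and the median log2 fold change was 0.73. In 13 of them the renin libraries were above all null-vector libraries (54.2%, against 1.95% of all tested genes). The higher calls numbered 11 without renin replicate 1, 14 to 20 without any other single library, and 12 in the fit of the 11 high-fat libraries alone. Acta1 encodes skeletal alpha-actin and Myh7 beta-myosin heavy chain, both abundant in the fetal ventricle. Nppb encodes the precursor of B-type natriuretic peptide, and Ankrd1 a cardiac ankyrin repeat protein that binds titin. The promoters of these 4 genes are shown because they share the MCAT letters GGAATG, the core known to be bound by TEAD factors, and because Acta1 also holds a CArG box, the core of serum response factor sites. They are from RefSeq on GRCm38.p6, 250 bases before to 50 after the start site, written 5′ to 3′ on the gene's strand with those motifs in capitals. Their positions are chr8:123894726-123895025 (minus strand) for Acta1, chr14:54994577-54994876 (minus) for Myh7, chr4:147985650-147985949 (plus) for Nppb and chr19:36119795-36120094 (minus) for Ankrd1. The Myh7 sequence is the first of 2 entries.
Acta1: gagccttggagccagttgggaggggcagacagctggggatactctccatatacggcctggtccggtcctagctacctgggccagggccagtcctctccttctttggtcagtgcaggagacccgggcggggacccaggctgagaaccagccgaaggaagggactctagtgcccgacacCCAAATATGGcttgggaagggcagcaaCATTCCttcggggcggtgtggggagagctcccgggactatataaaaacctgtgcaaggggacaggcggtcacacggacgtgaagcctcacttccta
Myh7: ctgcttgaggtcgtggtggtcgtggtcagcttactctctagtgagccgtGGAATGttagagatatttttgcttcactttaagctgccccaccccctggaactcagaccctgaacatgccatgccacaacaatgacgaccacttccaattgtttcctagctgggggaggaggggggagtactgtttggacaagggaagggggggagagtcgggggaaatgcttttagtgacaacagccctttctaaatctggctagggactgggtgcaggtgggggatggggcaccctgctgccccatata
Nppb: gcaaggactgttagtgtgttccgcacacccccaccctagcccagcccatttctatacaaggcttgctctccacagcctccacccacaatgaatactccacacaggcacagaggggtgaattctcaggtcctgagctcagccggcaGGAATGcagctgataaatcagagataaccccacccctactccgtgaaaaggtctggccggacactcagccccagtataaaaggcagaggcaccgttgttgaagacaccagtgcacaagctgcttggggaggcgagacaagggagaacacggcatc
Ankrd1: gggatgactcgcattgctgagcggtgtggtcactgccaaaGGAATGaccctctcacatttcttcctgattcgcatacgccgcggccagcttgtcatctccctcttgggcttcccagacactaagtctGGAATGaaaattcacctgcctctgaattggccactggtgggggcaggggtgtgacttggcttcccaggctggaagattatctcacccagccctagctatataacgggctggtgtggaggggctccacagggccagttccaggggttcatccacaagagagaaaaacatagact

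Counted from the start site, the MCAT letters begin at -46 in Acta1 on the opposite strand, at -201 in Myh7, at -105 in Nppb and at both -210 and -123 in Ankrd1, and the CArG box of Acta1 begins at -73. Of the 15 rises 7 hold MCAT in this window on either strand: these 4 and Ankrd23, Aqp8 and Gdf15. Of the 14 falls 10 have a promoter entry, and 1 of them, Lingo3, holds it. MCAT stands in 14.7% of all 32851 promoters and a CArG box in 1.63%. A gene was counted as holding a motif if any of its promoter entries did, while these shares are per entry, so the units differ. The same holds for the E-box and D-box counts given with the clock genes. These matches are a description of letters, not of bound sites.

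Acta1 (ENSMUSG00000031972, GRCm38 chromosome 8, 123891769 to 123894751) showed the largest rise. It measured 56.5, 98.04 and 184 CPM (lowest, median and highest of 6) with the null vector and 2499, 1840.1, 785, 670.1 and 2291 CPM in renin replicates 1 to 5 (log2 fold change 3.91, SE 0.57, edgeR adjusted p 0.00106). Every renin library was above every null-vector library, with replicates 3 and 4 the lowest of the renin group. Myh7 (ENSMUSG00000053093, GRCm38 chromosome 14, 54970684 to 54994626) measured 189.7, 355 and 608 CPM with the null vector and 3686, 3305, 2158, 1026 and 1041 CPM with renin (log2 fold change 2.57, SE 0.49, edgeR adjusted p 0.00371). The groups did not overlap, and replicates 4 and 5 were the lowest of the renin group. Reads of Acta1 and of Myh7 can be split with their close relatives Actc1 and Myh6, so the assignment between each pair is uncertain.

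The natriuretic peptides rose with a wide spread. Nppb (ENSMUSG00000029019, GRCm38 chromosome 4, 147985788 to 147987205) measured 15.9, 75.03 and 99.4 CPM with the null vector and 629.9, 275, 107, 102 and 252 CPM with renin (log2 fold change 2.01, SE 0.53, edgeR adjusted p 0.0217). The groups were apart by a narrow margin, the highest null-vector value lying just under the lowest renin value. Nppa, the atrial natriuretic peptide precursor, measured 27.2, 77.8 and 246 CPM with the null vector and 1002, 694, 371, 113 and 576 CPM with renin (log2 fold change 2.403, SE 0.64, edgeR adjusted p 0.024). Here the groups overlapped, since renin replicate 4 lay below null-vector replicates 3 and 4. Nppa is itself abundant in atrial tissue, and null-vector replicate 3 was a library high in atrial markers. Nppb also did not pass in limma voom. With 1 library left out, the call ended for Nppb without renin replicate 1 (0.105) and Nppa without renin replicate 1, 2 or 5 (0.0529 to 0.084), the adjusted p being given in brackets.

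Sensors of stretch and of calcium signalling rose as well. Ankrd1 (ENSMUSG00000024803, GRCm38 chromosome 19, 36111961 to 36120099) measured 506, 885 and 1036 CPM with the null vector and 2839.6, 3453, 2076, 1907 and 3199.8 CPM with renin (log2 fold change 1.73, SE 0.32, edgeR adjusted p 0.00285). Ankrd23 (ENSMUSG00000067653, GRCm38 chromosome 1, 36530188 to 36536883), of the same family, measured 203, 323 and 404 CPM and 1149, 863, 717, 618 and 891 CPM (log2 fold change 1.403, SE 0.22, edgeR adjusted p 0.00142). Xirp2 (ENSMUSG00000027022, GRCm38 chromosome 2, 67446002 to 67526614), an actin-binding protein of the intercalated disc, measured 121, 199 and 265 CPM and 1251, 806, 456, 379 and 929 CPM (log2 fold change 1.98, SE 0.25, edgeR adjusted p 0.000442). Each of these genes was higher in all 5 renin libraries than in any null-vector library, as the rule that named them required. Rcan1 (ENSMUSG00000022951, GRCm38 chromosome 16, 92391953 to 92470867), an inhibitor of calcineurin whose own transcription responds to it, measured 48.5, 58.6 and 64.3 CPM and 314, 156, 86.03, 79.1 and 162 CPM (log2 fold change 1.47, SE 0.26, edgeR adjusted p 0.00243). Renin replicate 1 was well above the rest for Rcan1, and replicates 3 and 4 lay just above the highest null-vector library.

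The list also holds an enzyme and structural proteins. Uck2, a uridine-cytidine kinase, had a log2 fold change of 1.26 (edgeR adjusted p 0.000631), and Flnc, the muscle filamin, one of 0.78 (edgeR adjusted p 0.00138). Nrap, a scaffold of growing myofibrils, had 0.68 (edgeR adjusted p 0.0013), and Des, which encodes the intermediate filament desmin, 0.34 (edgeR adjusted p 0.00204), with no overlap between groups in any of the 4. The remaining higher calls were Ankrd2, of the same family as Ankrd1, at 1.88, and Hspb6, Fhl1, Hspb7 and Csrp3, at 0.32 to 0.44. Ankrd2 was under 1 CPM in all 11 libraries. All 24 members had a log2 fold change above 0, the 7 that did not pass included. A call ended when 1 library was left out: Ankrd2 without renin replicate 1 or 2 (0.0507 to 0.0907), with the adjusted p in brackets.

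**Figure D1:**
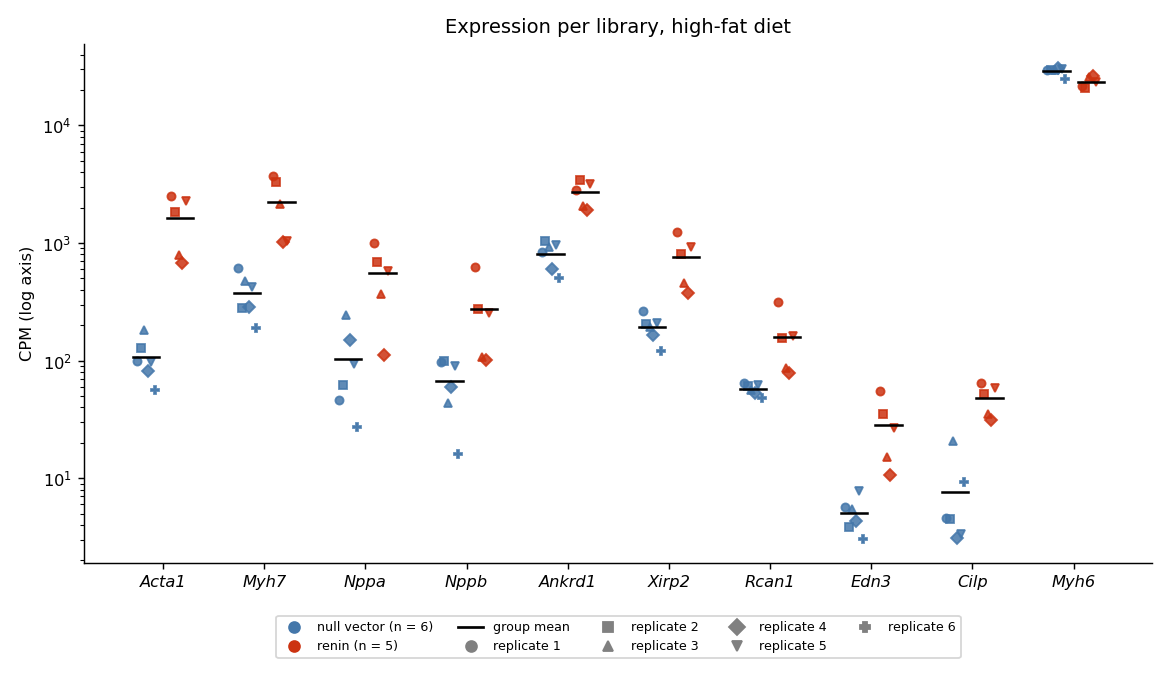
Points are the 6 null-vector and 5 renin libraries on the high-fat diet, in TMM-normalized CPM on a log axis, with the replicate given by symbol and the group mean by a bar. Renin libraries lie above null-vector libraries for every gene shown except Nppa, where groups overlap, and Myh6, whose mean is lower with renin while groups overlap, and replicates 3 and 4 sit low in most renin groups. The genes other than Nppa and Myh6 were chosen by a rule that required no overlap.

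Several adult sarcomere genes fell. Of 23 sarcomere and Z-disc genes 4 were called higher (17.4%) and 6 lower (26.1%), against 6.07% and 5.08% of all tested genes. The median was 0.09. Without renin replicate 1 or 5 the counts were 1 higher and 3 lower, and in the fit of the 11 libraries 2 and 2. Higher calls also numbered 2 without renin replicate 2 or null-vector replicate 2, 3 or 6. They numbered 2 with no filter on low counts and 1 without both libraries high in atrial markers. Tnni3, the cardiac inhibitory troponin, measured 2003, 2237 and 2762 CPM with the null vector and 1427, 1431, 1740.4, 1817 and 1449.6 CPM with renin (log2 fold change -0.53, SE 0.08, edgeR adjusted p 0.000818). All 5 renin libraries were below all 6 null-vector libraries, as they were for Tnnt2, cardiac troponin T (log2 fold change -0.39, SE 0.08, edgeR adjusted p 0.00304). Tcap, the titin cap, had a log2 fold change of -0.43 (edgeR adjusted p 0.0168), Myl2, the ventricular regulatory light chain, -0.32 (edgeR adjusted p 0.0194), and Myh6, the adult alpha-myosin heavy chain, -0.30 (edgeR adjusted p 0.0102). Tpm1 was the other lower call at -0.26. The higher calls were Myot, a Z-disc protein (log2 fold change 0.94, SE 0.25, edgeR adjusted p 0.0247), Myom1, an M-band protein (log2 fold change 0.45, SE 0.09, edgeR adjusted p 0.00267), Mybpc3 at 0.43 (edgeR adjusted p 0.0497) and Ttn at 0.28. Besides the losses given below, Mybpc3 did not pass with RLE or upper-quartile factors, in limma voom, with no filter on low counts, with thinned libraries, without both libraries high in atrial markers, without mitochondrially encoded genes or with the 11 libraries alone. Actc1 did not pass (log2 fold change 0.16, SE 0.10, edgeR adjusted p 0.332). Leaving out 1 library ended the call of Myot without renin replicate 1 or 5 (0.0553 to 0.0893); Tcap without renin replicate 1, 2 or 5 (0.0596 to 0.0618); Myl2 without renin replicate 1, 2 or 5 (0.0557 to 0.0681); Mybpc3 without renin replicate 1, 2, 3 or 5 or null-vector replicate 2, 3 or 6 (0.0513 to 0.152), adjusted p in brackets.

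On the TPM scale, which corrects for transcript length and allows levels of different genes to be compared, the shares of fetal forms stood as follows. Myh7 made up 13.04%, 11.96%, 7.29%, 3.19% and 3.67% of the summed Myh6 and Myh7 TPM in renin replicates 1 to 5, and 0.451% to 1.79% in the 6 null-vector libraries. The lowest of these is replicate 6, whose Myh6 was the highest of the 6 on the TPM scale (6800.5 against 4640.1 to 5179 TPM) and the lowest in CPM. Acta1 made up 22.2%, 19.6%, 10.3%, 7.88% and 21.9% of the summed Acta1 and Actc1 TPM with renin, and 0.896% to 2.85% with the null vector. Every renin library was above every null-vector library in both shares, and the adult form was still the larger part in all 11. On chow with renin the Myh7 share was 5.04% ± 2.81 (SD, n = 6), with replicate 6 at 0.877%, below the null-vector libraries on chow at 0.938% to 2.14%.

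**Figure D2:**
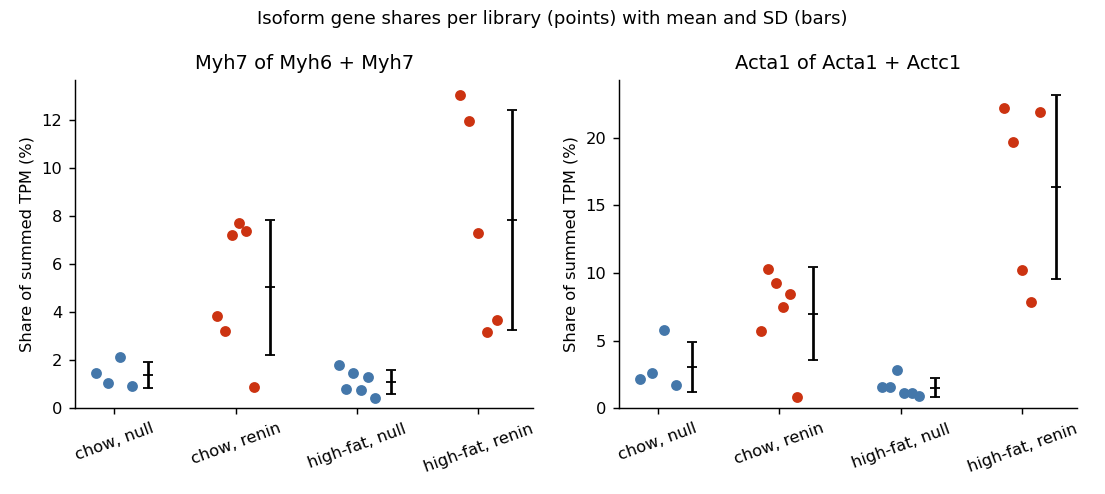
Points are libraries of all 4 groups, and bars the group mean and SD, for the Myh7 share of Myh6 plus Myh7 TPM on the left axis and the Acta1 share of Acta1 plus Actc1 TPM on the right. The 5 high-fat renin libraries lie at 3.19% to 13.04% and at 7.88% to 22.2%, above all high-fat null-vector libraries.

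Edn3 (ENSMUSG00000027524, GRCm38 chromosome 2, 174760619 to 174784042) encodes endothelin 3, a vasoactive peptide that prefers the type B receptor. It measured 3.03, 4.91 and 7.82 CPM with the null vector and 55.3, 35.2, 15, 10.6 and 26.7 CPM with renin (log2 fold change 2.503, SE 0.37, edgeR adjusted p 0.00106). The groups did not overlap, and its receptor gene Ednrb was also higher (log2 fold change 0.54, SE 0.13, edgeR adjusted p 0.00893). They were the 2 calls among 11 other tested genes of the natriuretic peptide and endothelin systems, a list without Nppa and Nppb, whose median was 0.03. That is 18.2% called higher, against 6.07% of all tested genes. Edn1, endothelin 1, did not pass (log2 fold change -0.37, SE 0.16, edgeR adjusted p 0.136).

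In the TGF-beta pathway ligands rose together with an inhibitor. Of 21 tested genes 7 were called higher (33.3%) and 2 lower (9.52%), against 6.07% and 5.08% of all tested genes. The median was 0.11. The higher calls numbered 5 to 7 with 1 library left out. The lower calls numbered 0 without renin replicate 1, 2 or 5 or null-vector replicate 3, with the 11 libraries alone or with no filter on low counts, and 1 in limma voom, with thinned libraries, without both atrial libraries or without renin replicate 3 or null-vector replicate 1, 4, 5 or 6. Gdf15 (ENSMUSG00000038508, GRCm38 chromosome 8, 70629393 to 70632456), a distant family member released under cell stress, measured 0.918, 1.88 and 3.37 CPM with the null vector and 18.1, 16.3, 6.03, 4.46 and 12.3 CPM with renin (log2 fold change 2.46, SE 0.51, edgeR adjusted p 0.0057). Tgfb2, a ligand, measured 9.89, 11.6 and 16.3 CPM and 22.1, 24.8, 21.6, 26.4 and 24.5 CPM (log2 fold change 0.98, SE 0.17, edgeR adjusted p 0.00149). Both genes showed no overlap between groups, and for Tgfb2 the renin libraries lay close together, with replicates 3 and 4 not set apart from the rest. Meox1, a transcription factor of activated fibroblasts, had a log2 fold change of 1.17 (edgeR adjusted p 0.0019), and Bambi, a decoy receptor, 0.66 (edgeR adjusted p 0.0117). Tgfb3 at 0.43 (edgeR adjusted p 0.0379) and Tgfbr1 at 0.39 were higher, and Tgfbr3 at -0.38 and Ltbp1 at -0.31 lower. Calls were lost on leaving out 1 library for Tgfb3 without renin replicate 1, 2, 3, 4 or 5 or null-vector replicate 1, 2, 4 or 5 (0.0524 to 0.0861), with the adjusted p in brackets.

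Matrix genes rose in part. Of 19 collagens all 19 had a log2 fold change above 0, with a median of 0.51. Of these 5 were called higher (26.3%, against 6.07% of all tested genes). Col8a1 (ENSMUSG00000068196, GRCm38 chromosome 16, 57624258 to 57754737), a short-chain collagen of vessel walls, measured 12.5, 15.2 and 19.9 CPM with the null vector and 71.8, 46.4, 27.3, 30.6 and 59.3 CPM with renin (log2 fold change 1.62, SE 0.22, edgeR adjusted p 0.00048). The groups did not overlap. The other calls were Col5a2 at 0.79 (edgeR adjusted p 0.00943), the basement membrane chains Col4a1 at 0.64 (edgeR adjusted p 0.00772) and Col4a2 at 0.52 (edgeR adjusted p 0.01), and Col15a1 at 0.56 (edgeR adjusted p 0.0181). The main fibrillar chains did not pass: Col1a1 had a log2 fold change of 0.53 (edgeR adjusted p 0.274) and Col3a1 of 0.51 (edgeR adjusted p 0.281). For Col3a1 the null-vector libraries ran from 116 CPM to 426 CPM, the highest being replicate 6, and the renin libraries from 195 to 445 CPM. Without null-vector replicate 6, 11 of the 19 collagens were called, all higher, and Col1a1 (log2 fold change 0.85, edgeR adjusted p 0.0422) and Col3a1 (0.90, edgeR adjusted p 0.0136) were among them. In limma voom, which gave that library the lowest weight, 9 were called, Col3a1 included (log2 fold change 0.73, adjusted p 0.0477), and in the fit of the 11 libraries 3. With 1 library left out, the call ended for Col15a1 without renin replicate 1 or 5 (0.0559 to 0.0721), the adjusted p being given in brackets.

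Of 38 matricellular and matrix-modifying genes 8 were called higher (21.1%, against 6.07% of all tested genes) and 0 lower, with a median of 0.41. Without renin replicate 1 or 5 the higher calls numbered 3 or 4, and without any other single library 6 to 11. DESeq2 called 13 higher, limma voom 15, and edgeR with the atrial score as a covariate 16. Cilp (ENSMUSG00000042254, GRCm38 chromosome 9, 65265180 to 65280605), a fibroblast matrix protein, measured 3.07, 4.57 and 20.8 CPM with the null vector and 65.02, 52.5, 34.9, 31.1 and 58.5 CPM with renin (log2 fold change 2.66, SE 0.62, edgeR adjusted p 0.0117). The renin libraries were all above the null-vector libraries, of which replicate 3 was the highest. Adamtsl2 (ENSMUSG00000036040, GRCm38 chromosome 2, 27079379 to 27108981), a secreted protein of fibrillin microfibrils that is not on the list, measured 4.36, 7.19 and 13.7 CPM and 47.8, 43.4, 19.96, 17.2 and 33.9 CPM (log2 fold change 2.04, SE 0.42, edgeR adjusted p 0.00563). Fbn1, fibrillin 1 itself, had a log2 fold change of 0.93 (edgeR adjusted p 0.0163), Thbs4, thrombospondin 4, 1.97 (edgeR adjusted p 0.0306), Bgn, the proteoglycan biglycan, 0.87 (edgeR adjusted p 0.0305), and Timp1, an inhibitor of matrix proteases, 0.94 (edgeR adjusted p 0.024). Loxl2 at 0.76 and Ccn1 at 0.54 were also called. Postn, periostin, a marker of activated fibroblasts, did not pass (log2 fold change 1.33, SE 0.44, edgeR adjusted p 0.0586). It passed in DESeq2 (adjusted p 0.0213), in limma voom (log2 fold change 1.69, adjusted p 0.00904), with the atrial score, and without null-vector replicate 3 or 6, renin replicate 3 or both atrial libraries. Some calls ended when 1 library was left out: Fbn1 without renin replicate 1 or 5 (0.0535 to 0.0634); Thbs4 without renin replicate 1 or 5 or null-vector replicate 2, 4, 5 or 6 (0.0571 to 0.0773); Bgn without renin replicate 1, 2 or 5 or null-vector replicate 2, 4 or 5 (0.0567 to 0.0834); Timp1 without renin replicate 1 or 5 (0.0553 to 0.0674), with the adjusted p in brackets. The 8 general fibroblast markers had 0 calls, and their sum ran from 1301 to 2573 CPM with the null vector and 1370 to 1878 CPM with renin. With the atrial score as a covariate 2 of the 8 were called higher. With the replicate number as a block, or without null-vector replicate 6, 1 was. Both null-vector libraries that stand apart had matrix and fibroblast values near or above those of the renin libraries, and without both libraries high in atrial markers 13 matricellular genes were called higher and 1 lower.

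Calcium handling and ion channel genes were lower where they differed, with 1 exception. Of 28 tested genes 5 were called lower (17.9%) and 1 higher (3.57%), against 5.08% and 6.07% of all tested genes. The median was -0.19. The lower calls fell to 2 without renin replicate 1, 2 or 5 or null-vector replicate 5, to 3 without null-vector replicate 2 or 4, to 3 with no filter on low counts, and to 1 with the 11 libraries alone. The higher calls numbered 2 in DESeq2 and without renin replicate 3 or 4 or null-vector replicate 2 or 5. Kcnd2, a channel of the transient outward potassium current, measured 11.1, 13.5 and 18.4 CPM with the null vector and 5.69, 6.42, 9.19, 11.6 and 7.39 CPM with renin (log2 fold change -0.79, SE 0.19, edgeR adjusted p 0.0103). Only renin replicate 4 reached into the null-vector range. Kcnh2, of the rapid delayed rectifier current, had a log2 fold change of -0.57 (edgeR adjusted p 0.0286), Hrc, the histidine-rich calcium-binding protein, -0.34 (edgeR adjusted p 0.005), Pln, phospholamban, -0.27 (edgeR adjusted p 0.0286), and Trdn, triadin, -0.22 (edgeR adjusted p 0.0336). Casq2, which encodes the calcium-binding calsequestrin of the sarcoplasmic reticulum, was higher (log2 fold change 0.47, SE 0.12, edgeR adjusted p 0.0125). The calcium pump gene Atp2a2 did not pass (log2 fold change -0.15, SE 0.11, edgeR adjusted p 0.411), and its lowest value of the 11 was null-vector replicate 6 at 7593 CPM. Leaving out 1 library ended the call of Kcnh2 without renin replicate 1, 2 or 5 or null-vector replicate 3, 5 or 6 (0.0513 to 0.0955); Pln without renin replicate 1, 2 or 5 or null-vector replicate 2, 4 or 5 (0.0506 to 0.106); Trdn without renin replicate 1, 2 or 5 or null-vector replicate 2, 4, 5 or 6 (0.0564 to 0.105); Casq2 without renin replicate 1 (0.07), adjusted p in brackets.

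Genes of oxidative phosphorylation encoded in the nucleus were lower as a group. Of 83 tested 54 were called lower (65.1%, against 5.08% of all tested genes) and 0 higher, 81 were below 0, and the median was -0.24. The ventricular cardiomyocyte markers, with a median of -0.21, moved the same way, and their part in this result was not tested. By complex, the lower calls were 23 of 38 in complex I, 3 of 4 in complex II, 6 of 9 in complex III, 9 of 15 in complex IV and 13 of 16 in ATP synthase. The medians of the complexes were alike, from -0.23 in complex I to -0.28 in ATP synthase. Cox7a1, the heart and muscle form of a complex IV subunit, measured 285, 342 and 439 CPM with the null vector and 198, 232, 264, 286 and 246 CPM with renin (log2 fold change -0.50, SE 0.10, edgeR adjusted p 0.00371). Renin replicate 4 lay just inside the null-vector range. Among the other large falls, Atp5e had a log2 fold change of -0.46 (edgeR adjusted p 0.0105), Ndufa13 of -0.42 (edgeR adjusted p 0.013) and Cox6b2, a subunit at 1.80 CPM or less, of -0.88 (edgeR adjusted p 0.0146). Renin libraries lay below all null-vector libraries in 15 of the 83 (18.1%, against 1.52% of all tested genes).

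These falls were small in size, and the number called moved in both directions with single libraries. The mean log2 CPM of the 83 genes, set against the null-vector mean, was -0.36, -0.21, -0.22, -0.17 and -0.27 in renin replicates 1 to 5. In null-vector replicates 1 and 3 it was -0.13 and -0.16, the lowest of that group, and in replicate 6 it was the highest at 0.22. All 5 renin libraries were thus below all 6 null-vector libraries in the list mean. Without null-vector replicate 1 or 3 the lower calls numbered 63, as in DESeq2, without null-vector replicate 5 or 6 they numbered 35 or 38, and without renin replicate 1 or 5 they numbered 24 or 25. In the fit of the 11 high-fat libraries alone 10 were called. The 13 genes encoded in mitochondrial DNA were all below 0 with a median of -0.18, and 1 of them passed (3 in DESeq2, limma voom and without null-vector replicate 3, and 2 without renin replicate 4), mt-Nd3 (log2 fold change -0.30, SE 0.09, edgeR adjusted p 0.0282). Calls were lost on leaving out 1 library for mt-Nd3 without renin replicate 1 or 5 or null-vector replicate 2, 5 or 6 (0.0568 to 0.0926), with the adjusted p in brackets.

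Fuel pathways feeding the respiratory chain had a like direction. Of 36 genes of fatty acid oxidation and lipid handling 11 were called lower (30.6%, against 5.08% of all tested genes) and 0 higher. Of the 36, 34 were below 0, and the median was -0.22. Acaa2, the mitochondrial thiolase that ends each round of beta-oxidation, measured 666, 912 and 1012 CPM with the null vector and 503, 665, 696, 738 and 533 CPM with renin (log2 fold change -0.52, SE 0.12, edgeR adjusted p 0.00831). Null-vector replicate 4, at 666 CPM, lay among the renin libraries, and the other 5 null-vector libraries lay above all of them. Etfb and Etfa pass electrons from acyl-CoA dehydrogenases to the respiratory chain. Etfb had a log2 value of -0.50 (edgeR adjusted p 0.00422) and Etfa one of -0.35 (edgeR adjusted p 0.00381), both with no overlap between groups. Eci1, an enoyl-CoA isomerase, had -0.35 (edgeR adjusted p 0.0103), Lipe, hormone-sensitive lipase, -0.41 (edgeR adjusted p 0.0445), and Plin5, a lipid droplet protein, -0.36 (edgeR adjusted p 0.0286). Cpt1b, the muscle form of the transferase that admits fatty acids to mitochondria, did not pass (log2 fold change -0.09, SE 0.07, edgeR adjusted p 0.485). Without renin replicate 1 or 5 there were 5 lower calls in this list, and in the fit of the 11 libraries 4. With 1 library left out, the call ended for Lipe without renin replicate 1, 2 or 5 or null-vector replicate 4 or 6 (0.0663 to 0.133) and Plin5 without renin replicate 1, 2 or 5 or null-vector replicate 6 (0.0561 to 0.0949), the adjusted p being given in brackets.

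All 18 genes of the tricarboxylic acid cycle were below 0, with a median of -0.19. Of these 7 were called lower (38.9%, against 5.08% of all tested genes). The lower calls numbered 4 without renin replicate 1, 11 without null-vector replicate 6, 5 to 8 without any other single library, 12 in limma voom, 9 in DESeq2, and 2 with the 11 libraries alone. Idh3g had a log2 fold change of -0.33 (edgeR adjusted p 0.00523), Suclg1 of -0.30 (edgeR adjusted p 0.0066), Fh1 of -0.25 (edgeR adjusted p 0.00869) and Sdhc of -0.33 (edgeR adjusted p 0.00519), none with overlap between groups. The 3 succinate dehydrogenase genes called here, Sdha, Sdhb and Sdhc, are also the complex II genes counted above. Use of branched-chain amino acids and ketones was covered by 20 genes, 8 called lower and 0 higher, with a median of -0.18. The lower calls were 40.0% of the list, against 5.08% of all tested genes. Without renin replicate 4 the calls were 9 lower and 2 higher, and without null-vector replicate 4 they were 8 and 1. Both DESeq2 and limma voom called 1 higher. Bckdha, a subunit of the branched-chain keto acid dehydrogenase, measured 219, 247 and 288 CPM with the null vector and 138, 190.4, 214, 202 and 157 CPM with renin (log2 fold change -0.47, SE 0.09, edgeR adjusted p 0.00289). The other subunit Bckdhb had a log2 fold change of -0.52 (edgeR adjusted p 0.0029), the phosphatase Ppm1k that activates the complex -0.66 (edgeR adjusted p 0.00512), and the mitochondrial aminotransferase Bcat2 -0.37 (edgeR adjusted p 0.00303). Bckdha and Bckdhb showed no overlap. Bdh1, a ketone body dehydrogenase, lay in the other direction and did not pass (log2 fold change 1.21, SE 0.39, edgeR adjusted p 0.0528). It passed in DESeq2 (adjusted p 0.0151) and limma voom (adjusted p 0.0425), with the atrial score, and without null-vector replicate 4 or renin replicate 4.

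Glucose genes were mixed: of 33, 7 were called lower (21.2%) and 1 higher (3.03%), against 5.08% and 6.07% of all tested genes. The median was -0.02. The lower calls numbered 4 without renin replicate 1 or 5 or null-vector replicate 5, and 2 with the 11 libraries alone. The higher calls numbered 3 without renin replicate 3 or null-vector replicate 1, and 2 in DESeq2, with the atrial score and without renin replicate 4. Pfkfb1 (ENSMUSG00000025271, GRCm38 chromosome X, 150588229 to 150643878), an enzyme that sets the level of the phosphofructokinase activator fructose 2,6-bisphosphate, measured 11.3, 16.9 and 24.3 CPM with the null vector and 3.08, 3.05, 6.75, 11.3 and 5.62 CPM with renin (log2 fold change -1.52, SE 0.28, edgeR adjusted p 0.00259). The renin libraries were below the null-vector libraries, replicate 4 by the least. Slc2a4, the insulin-responsive glucose transporter, had a log2 fold change of -0.31 (edgeR adjusted p 0.0124), Ldhb, a lactate dehydrogenase, -0.34 (edgeR adjusted p 0.00304), Pdk2, a kinase that closes the pyruvate gate, -0.31 (edgeR adjusted p 0.00797), and Eno3, muscle enolase, -0.27 (edgeR adjusted p 0.0329). The higher call was Gyg, the primer of glycogen (log2 fold change 0.37, SE 0.08, edgeR adjusted p 0.00703). Pdk4 did not pass (log2 fold change 0.11, SE 0.19, edgeR adjusted p 0.767). Among 14 regulators of metabolism 2 were called lower (14.3%, near the 11.1% called among all tested genes, with 4 in DESeq2), Rxra at -0.31 (edgeR adjusted p 0.0131) and Esrra at -0.25 (edgeR adjusted p 0.0301), and Ppargc1a did not pass (log2 fold change -0.29, SE 0.13, edgeR adjusted p 0.161). Some calls ended when 1 library was left out: Eno3 without renin replicate 1, 3 or 5 or null-vector replicate 4 or 5 (0.0516 to 0.0944); Rxra without renin replicate 1 (0.0527); Esrra without renin replicate 2 or 5 or null-vector replicate 5 or 6 (0.0619 to 0.0997), with the adjusted p in brackets.

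**Figure D3:**
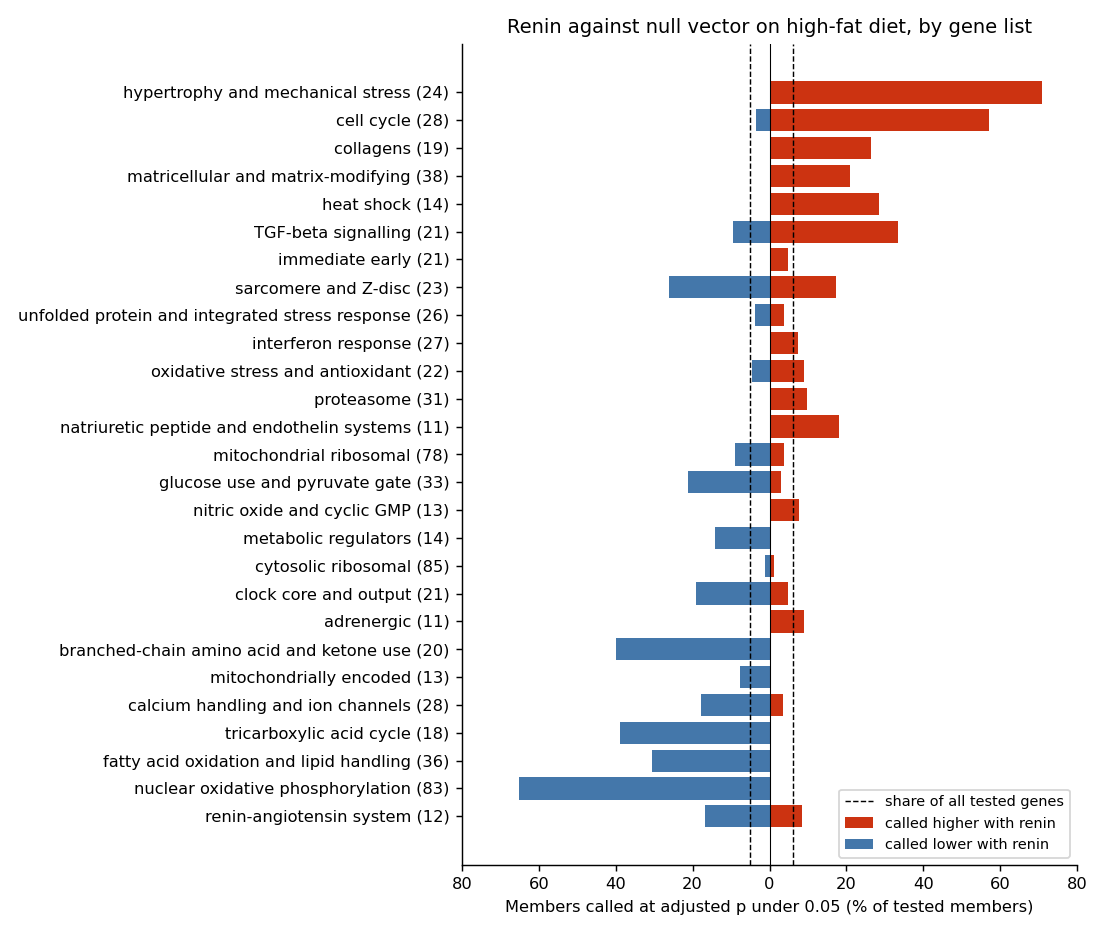
Bars give, for each pathway list with 10 or more tested members (number in brackets), the percent of members called higher to the right and lower to the left, with dashed lines at the share of all tested genes (6.07% higher, 5.08% lower). Hypertrophy and mechanical stress has the longest bar to the right (70.8%) and nuclear oxidative phosphorylation the longest to the left (65.1%).

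Further falls named by the rule lay in other enzymes and in membrane and secreted proteins. Ces1d (ENSMUSG00000056973, GRCm38 chromosome 8, 93166068 to 93197838), a carboxylesterase that hydrolyses triglycerides, measured 75.1, 100.4 and 129 CPM with the null vector and 15.3, 23.7, 63.96, 73.3 and 27.6 CPM with renin (log2 fold change -1.29, SE 0.31, edgeR adjusted p 0.0137). The groups did not overlap, and renin replicates 3 and 4 were nearest the null-vector range. Ces1d belongs to a cluster of similar genes between which reads are uncertain. Gpt (ENSMUSG00000022546, GRCm38 chromosome 15, 76695716 to 76699686), alanine aminotransferase, measured 24.6, 32.9 and 36.1 CPM and 17.02, 14.9, 21.1, 22.3 and 15.2 CPM (log2 fold change -0.82, SE 0.12, edgeR adjusted p 0.000442). Lgals4, a galectin, had a log2 fold change of -1.23 (edgeR adjusted p 0.0174), and Phkg1, a catalytic subunit of phosphorylase kinase, -1.04 (edgeR adjusted p 0.0181). Penk, which encodes proenkephalin, had -1.23 (edgeR adjusted p 0.0147), and Scara5, a scavenger receptor that takes up ferritin, -1.03 (edgeR adjusted p 0.00806). Leaving out 1 library ended the call of Lgals4 without renin replicate 2 or 5 (0.0531 to 0.0573); Penk without renin replicate 5 (0.0515); Phkg1 without renin replicate 1, 2 or 5 (0.0525 to 0.0587), adjusted p in brackets.

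The remaining named falls were Stum at -0.98 (edgeR adjusted p 0.0019), Lingo3 at -0.93 (edgeR adjusted p 0.00244), Dusp23, a phosphatase, at -0.88 (edgeR adjusted p 0.00201), Cmtm8 at -0.83 (edgeR adjusted p 0.0013), Gcat, an enzyme of threonine breakdown, at -0.80 (edgeR adjusted p 0.00738), and Selenbp1, a methanethiol oxidase, at -0.78 (edgeR adjusted p 0.000672). All but Selenbp1 were at 15.2 CPM or less in every one of the 11 libraries. Selenbp1 measured 86.1, 96.8 and 117 CPM with the null vector and 41.9, 51.1, 72.5, 71.4 and 46.2 CPM with renin. Renin replicates 3 and 4 were again the highest of their group, below the lowest null-vector library.

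Among the remaining named rises, Aqp8 (ENSMUSG00000030762, GRCm38 chromosome 7, 123462291 to 123468004), a channel for water and hydrogen peroxide, measured 0.702, 1.498 and 2.88 CPM with the null vector and 21.6, 23.5, 4.88, 2.93 and 16.4 CPM with renin (log2 fold change 3.05, SE 0.54, edgeR adjusted p 0.00243). Renin replicate 4 was barely above the highest null-vector library and replicates 1, 2 and 5 were far above it. Nlrc3 (ENSMUSG00000049871, GRCm38 chromosome 16, 3945007 to 3976632), a restraint on innate immune signalling, measured 1.36, 1.79 and 2.41 CPM and 17.5, 11.6, 7.03, 4.95 and 9.07 CPM (log2 fold change 2.41, SE 0.29, edgeR adjusted p 0.000203). Cnksr1 (ENSMUSG00000028841, GRCm38 chromosome 4, 134228041 to 134238399), a scaffold of Ras signalling, measured 2.67, 5.85 and 6.53 CPM and 21.7, 17.7, 15.6, 7.67 and 19.8 CPM (log2 fold change 1.63, SE 0.31, edgeR adjusted p 0.00324). These genes are low in this tissue, at 23.5 CPM or less in every library, and none overlapped between groups.

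Cell cycle transcripts rose from a low level. Of 28 tested genes 16 were called higher and 1 lower (60.7% called, against 11.1% of all tested genes), and the median was 0.65. Ube2c, of the complex that ends mitosis, measured 0.833, 1.25 and 1.89 CPM with the null vector and 7.84, 3.59, 2.55, 1.64 and 5.41 CPM with renin (log2 fold change 1.74, SE 0.29, edgeR adjusted p 0.00137). Cdk1, the mitotic kinase, measured 0.833, 1.03 and 1.96 CPM and 4.76, 3.98, 2.19, 1.395 and 4.01 CPM (log2 fold change 1.43, SE 0.27, edgeR adjusted p 0.00204). In both genes renin replicate 4 fell within the null-vector range and replicates 1, 2 and 5 were the highest. Ccnb1 had a log2 fold change of 1.21 (edgeR adjusted p 0.00259), Kif20a of 1.14 (edgeR adjusted p 0.00215), Prc1 of 1.11 (edgeR adjusted p 0.00572) and Mki67 of 1.05 (edgeR adjusted p 0.0153), and the replication helicase genes Mcm2, Mcm5 and Mcm6 of 0.52, 0.46 and 0.45. Cenpf (ENSMUSG00000026605, GRCm38 chromosome 1, 189640606 to 189688086), which encodes a kinetochore protein, was the exception: it measured 22.7, 30.5 and 46.6 CPM with the null vector and 7.92, 7.15, 9.44, 18.7 and 7.05 CPM with renin (log2 fold change -1.69, SE 0.36, edgeR adjusted p 0.00669). Cenpf is also the only one of these 17 calls whose groups did not overlap. Without renin replicate 1, 2 or 5 the higher calls in the list numbered 7, 8 or 8, without null-vector replicate 2, 3 or 5 they numbered 10, and in the fit of the 11 libraries alone 4. Calls were lost on leaving out 1 library for Mki67 without renin replicate 1 or 5 (0.0523 to 0.0718), with the adjusted p in brackets.

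Of 21 clock genes 1 was called higher (4.76%) and 4 lower (19.0%), against 6.07% and 5.08% of all tested genes. The median was -0.15. There were 0 lower calls without renin replicate 1 or 5 and 1 without renin replicate 2, the 11 libraries alone gave 0 in either direction, and DESeq2 called 7 lower. Arntl, which drives the clock's positive arm, measured 2.48, 2.73 and 2.88 CPM with the null vector and 7.63, 2.94, 3.12, 3.104 and 3.98 CPM with renin (log2 fold change 0.62, SE 0.19, edgeR adjusted p 0.037). Its groups did not overlap, but only renin replicate 1 and, by less, replicate 5 stood clear of the null-vector libraries. Hlf had a log2 fold change of -0.59 (edgeR adjusted p 0.0199), Cry2 of -0.30 (edgeR adjusted p 0.0182), Usp2 of -0.28 (edgeR adjusted p 0.0199) and Tef of -0.24 (edgeR adjusted p 0.0303), and Dbp and Per1 did not pass, at -0.35 (edgeR adjusted p 0.0717) and -0.49 (edgeR adjusted p 0.0825). Dbp passed in DESeq2 (adjusted p 0.0359), without both atrial libraries and without renin replicate 3 or 4, and Per1 in DESeq2 (adjusted p 0.0256) and without null-vector replicate 2. With 1 library left out, the call ended for Arntl without renin replicate 1 or 5 or null-vector replicate 2, 3, 4, 5 or 6 (0.0539 to 0.222); Hlf without renin replicate 1, 2 or 5 (0.0521 to 0.0671); Cry2 without renin replicate 1 or 5 (0.0655 to 0.0691); Usp2 without renin replicate 1, 2 or 5 (0.0529 to 0.0795); Tef without renin replicate 1, 2 or 5 or null-vector replicate 3 or 5 (0.0618 to 0.112), the adjusted p being given in brackets. Of the 17 clock genes with a promoter entry 5 hold the E-box letters CACGTG, against 7.15% of all promoters, and 1 holds the D-box TTANGTAA, against 2.32%. Of the 15 rises 4 hold the E-box and 0 the D-box, and of the 10 falls with an entry 2 and 0.

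**Figure D4:**
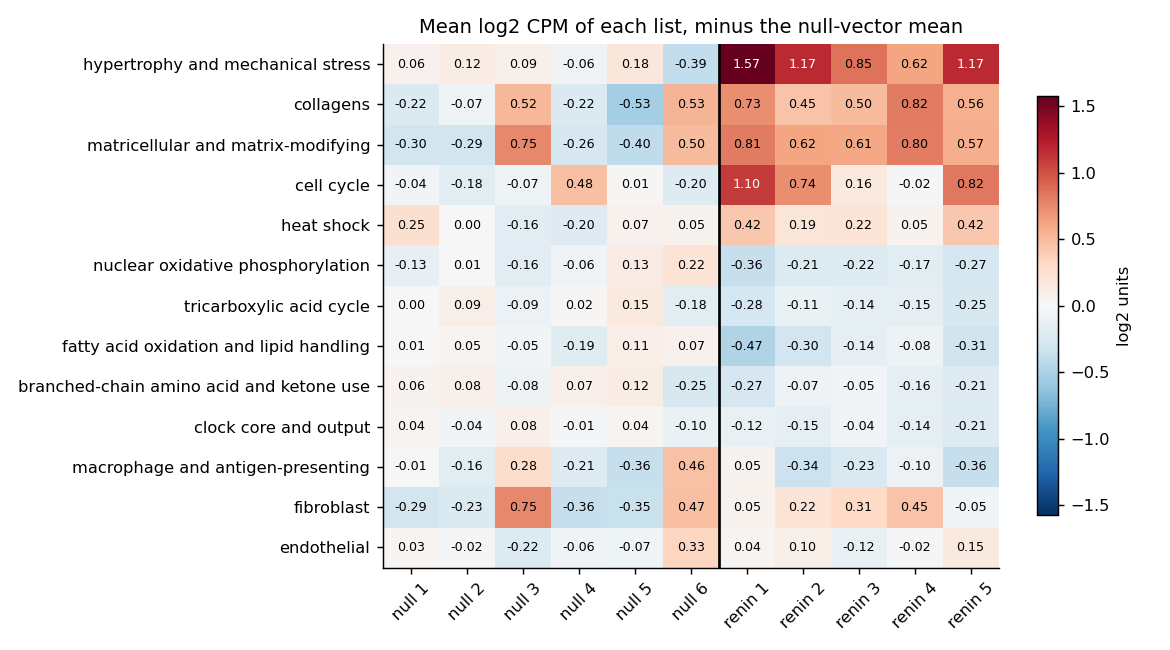
Each cell is the mean log2 CPM of a gene list in 1 of the 11 high-fat libraries minus the mean over the 6 null-vector libraries, with the value printed and red for higher. The hypertrophy list is highest in renin replicate 1 (1.57) and lowest among renin libraries in replicate 4 (0.62), while collagen and fibroblast lists are high in null-vector replicates 3 and 6.

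Heat shock genes had a larger share of higher calls than all tested genes. In 3 other lists of stimulus and stress responses 4.76% to 7.69% were called, against 11.1% of all tested genes. Of 14 heat shock genes 4 were called higher (28.6%, against 6.07% of all) and 0 lower, with a median of 0.20: Hsp90aa1, a cytosolic chaperone (log2 fold change 0.66, SE 0.14, edgeR adjusted p 0.00625), Hsph1 at 0.64 (edgeR adjusted p 0.0385), Hspb8 at 0.44 and Hspa4 at 0.39. The unfolded protein and integrated stress response had 1 higher call of 26, Atf5 at 0.35 (edgeR adjusted p 0.0123), and 1 lower, Herpud1 at -0.43 (edgeR adjusted p 0.0266). Of 21 immediate early genes, which respond to stimuli within minutes, Egr3 was the only call, higher at 0.66 (edgeR adjusted p 0.0223). Interferon response genes had 2 higher calls of 27 (7.41%, near the 6.07% of all tested genes), Rsad2 at 0.46 and Ifit2 at 0.45. They had 1 without renin replicate 1 or 5. The higher calls of the unfolded protein list numbered 4 with the replicate number as a block. They numbered 3 in DESeq2, with a mean of at least 20 CPM, and without renin replicate 4 or null-vector replicate 1. There were 2 in limma voom, with the atrial score, with thinned libraries, without mitochondrially encoded genes and without null-vector replicate 6. Immediate early genes had 2 lower calls without null-vector replicate 2. Some calls ended when 1 library was left out: Hsph1 without renin replicate 1 or 5 or null-vector replicate 2, 3, 4 or 6 (0.0548 to 0.137); Herpud1 without renin replicate 1 or 2 or null-vector replicate 3 (0.056 to 0.0933); Egr3 without renin replicate 1 or 2 (0.0705 to 0.0828), with the adjusted p in brackets.

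Markers of most other cell types had no call in the main edgeR fit, unlike those of ventricular cardiomyocytes given above (5 of 8). The fibroblast, endothelial, macrophage and antigen-presenting, lymphocyte, neutrophil, blood, adipocyte, central nervous, Schwann cell, epicardial, atrial, and liver and lung lists hold 80 tested genes, of which edgeR called 0, with 6 at an unadjusted p under 0.05. DESeq2 called 2 of the 80 and limma voom 0, and edgeR had 0 to 2 calls in these lists with 1 library left out. With the atrial score as a covariate edgeR called more: 2 fibroblast markers higher, 1 atrial marker higher and 2 lower, and 1 macrophage and 1 Schwann cell marker lower. With the replicate number as a block 1 fibroblast marker was higher. With thinned libraries or without both atrial libraries 1 Schwann cell marker was lower. Though without a call in the main fit, several of these lists lay to one side. All 5 Schwann cell markers (median -0.44), all 6 blood markers (median -0.21) and 12 of the 14 macrophage and antigen-presenting markers were below 0. The 14 macrophage and antigen-presenting markers summed to 172 to 234 CPM with renin and 180.1 to 328 CPM with the null vector, and their median log2 fold change was -0.30. Of smooth muscle and pericyte markers all 8 were below 0 with a median of -0.28. The 1 call (12.5%, near the 11.1% of all tested genes) was Kcnj8, lower at -0.34 (edgeR adjusted p 0.00876). Skeletal muscle markers, of interest because Acta1 is also the actin of skeletal muscle, summed to 1.56 to 4.59 CPM over the 11 libraries, and the fast myosin genes Myh1, Myh2 and Myh4 had at most 7 reads in any. Only Tnni2 of 5 tested was called, and it was lower at -1.11, a call lost in DESeq2, in limma voom, and without renin replicate 1, 2, 3 or 5 or null-vector replicate 3, 5 or 6. Cytosolic ribosomal genes had 2 calls of 85 (2.35%, against 11.1% of all tested genes). Rpl3 was higher at 0.31 (edgeR adjusted p 0.0291) and its muscle form Rpl3l lower at -0.71 (edgeR adjusted p 0.00476). Reads of these similar genes are uncertain between them. The lower calls numbered 3 in DESeq2, and 2 to 5 without renin replicate 3 or 4 or null-vector replicate 1 or 4. Leaving out 1 library ended the call of Rpl3 without renin replicate 1 or null-vector replicate 1, 2 or 5 (0.0513 to 0.129), adjusted p in brackets.

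Within the renin-angiotensin system of the heart itself 3 of 12 tested genes were called (25.0%, against 11.1% of all tested genes). The 1 higher call is 8.33% of the list, near the 6.07% of all tested genes. There were 0 calls without renin replicate 1 or 5. Agtr1a, the type 1 angiotensin receptor, measured 21.1, 31.9 and 38.8 CPM with the null vector and 19.6, 24.3, 26.2, 25.2 and 16.8 CPM with renin (log2 fold change -0.50, SE 0.13, edgeR adjusted p 0.0163). Ace, the converting enzyme, measured 51.2, 62.4 and 84.8 CPM and 111, 103, 80.1, 77.2 and 98.5 CPM (log2 fold change 0.51, SE 0.13, edgeR adjusted p 0.0181). In both genes the groups overlapped in part: renin replicates 2 to 4 reached above the lowest null-vector library for Agtr1a, and for Ace null-vector replicate 3 lay above renin replicates 3 and 4. Hsd11b1, which regenerates active glucocorticoid, was lower at -0.36 (edgeR adjusted p 0.0286). In the nitric oxide and cyclic GMP list 1 of 13 was called (7.69%, against 11.1% of all tested genes), and 2 without renin replicate 4. The call was Prkg1, the cyclic GMP-dependent kinase, which measured 8.07, 9.25 and 10.7 CPM and 15.3, 11.6, 13.6, 13.8 and 14.9 CPM (log2 fold change 0.56, SE 0.10, edgeR adjusted p 0.00138). Its groups did not overlap. Calls were lost on leaving out 1 library for Agtr1a without renin replicate 1 or 5 (0.0553 to 0.0637); Ace without renin replicate 1, 2 or 5 (0.0518 to 0.0684); Hsd11b1 without renin replicate 1 or 5 or null-vector replicate 5 (0.0622 to 0.0964), with the adjusted p in brackets.

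Whether the renin difference depended on diet was tested as an interaction, the high-fat log2 fold change less the chow one. It was called for 1589 of 15216 genes (10.4%), and 357 of these were among the 1696. The interaction holds the high-fat difference itself, so an overlap of these calls is in part built in. The chow and the high-fat contrasts share no library. On chow 2048 of the 15216 genes were called (13.5%). Of the 1696 genes called on the high-fat diet 232 were among them, a share close to that of all genes, and 210 of the 232 had the same direction. The named rises and falls were chosen for large high-fat differences. That choice favours an interaction in the same direction and smaller values on chow, so their counts are no test of a dependence on diet. Among the 15 named rises the interaction was called for 6, all larger on the high-fat diet: Acta1 at 3.04 (edgeR adjusted p 0.0145), Aqp8 at 2.67 (edgeR adjusted p 0.0381), Xirp2 at 1.72 (edgeR adjusted p 0.00337), Nlrc3 at 1.67 (edgeR adjusted p 0.0156), Rcan1 at 1.33 (edgeR adjusted p 0.0302) and Col8a1 at 1.18 (edgeR adjusted p 0.0211). On chow the log2 fold changes of the 15 ran from -0.30 for Nppb to 1.59 for Myh7, and 0 of 15 were called. Renin replicate 6 on chow stood apart, with an Acta1 share of 0.839% of Acta1 and Actc1 TPM against 5.71% to 10.3% in the other 5 renin libraries on chow. Without it Myh7 was called on chow (log2 fold change 1.81, edgeR adjusted p 0.0101) and the other 14 were not, and 5 of the 6 interactions still passed, Aqp8 being the exception. Without chow null-vector replicate 3, Nlrc3 and Ankrd23 were called on chow. Myh7, Edn3 and Cilp did not pass for the interaction, at 0.98 (edgeR adjusted p 0.441), 1.33 (edgeR adjusted p 0.172) and 2.14 (edgeR adjusted p 0.161), and so are not shown to depend on diet. The calls of Acta1 and Xirp2 held on leaving out each of the 21 libraries in turn. Those of Nlrc3 and Col8a1 were lost without chow null-vector replicate 3, that of Rcan1 in 5 of the 21 fits and that of Aqp8 in 12. The fits that lost Rcan1 lacked chow null-vector replicate 1 or 3, chow renin replicate 1 or 3, or high-fat null-vector replicate 3. Those that lost Aqp8 lacked null-vector replicate 3 or 4 or renin replicate 1, 3, 4 or 6 on chow, or null-vector replicate 3, 4 or 6 or renin replicate 1, 2 or 5 on the high-fat diet.

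Among the 14 falls the interaction was called for 3: Stum at -1.81 (edgeR adjusted p 2.14e-05), Penk at -1.44 (edgeR adjusted p 0.0404) and Selenbp1 at -0.61 (edgeR adjusted p 0.0222). The call of Penk was lost in 11 of the 21 fits that leave out 1 library, and the calls of Stum and Selenbp1 in none. Those fits lacked null-vector replicate 1, 2 or 4 or renin replicate 1, 2 or 3 on chow, or null-vector replicate 3 or 6 or renin replicate 1, 2 or 5 on the high-fat diet. Stum was higher with renin on chow (log2 fold change 0.83, edgeR adjusted p 0.00226) and lower on the high-fat diet. Lingo3 was lower on both diets, on chow with a log2 fold change -0.62, edgeR adjusted p 0.0253, a call lost without chow null-vector replicate 1, 2 or 4 or chow renin replicate 1, 3 or 5. Of the 83 oxidative phosphorylation genes 0 had an interaction called by edgeR, with 6 at an unadjusted p under 0.05 and 1 called by DESeq2. Of the 18 tricarboxylic acid cycle genes 0 did by either tool, with 2 at an unadjusted p under 0.05. In the hypertrophy list the interaction was called for 9 of 24 by edgeR (37.5%, against 10.4% of all tested genes) and 12 by DESeq2. Several cell cycle genes were called higher on chow as well, among them Ccnb1 (log2 fold change 2.002, edgeR adjusted p 6.09e-06) and Ube2c (log2 fold change 1.97, edgeR adjusted p 0.000298). The chow renin libraries differ from the others in transcripts of central neurons and glia, for which 9 of 10 markers had a called interaction, and the part of that difference in these interactions was not tested.

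**Figure D5:**
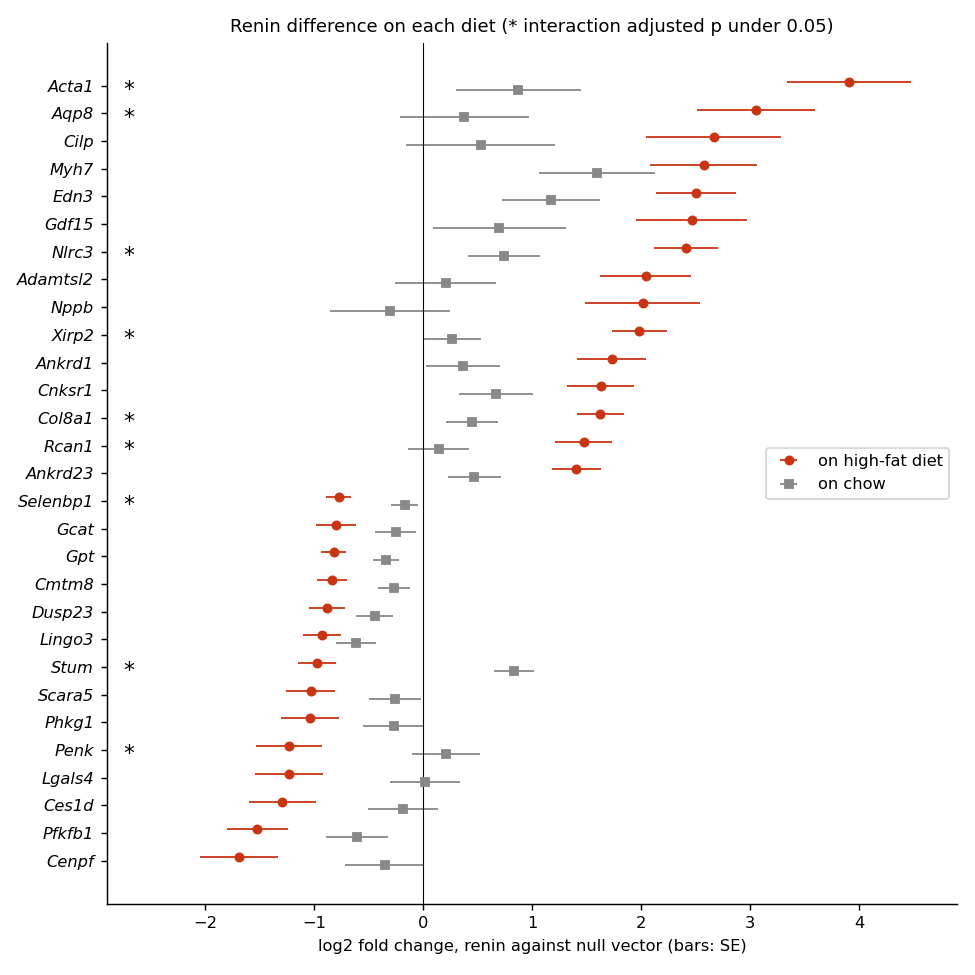
Points are the log2 fold change of renin against the null vector for the 15 named rises and 14 named falls, on the high-fat diet (circles) and on chow (squares), with bars of 1 SE and an asterisk where the interaction has an adjusted p under 0.05. The genes were chosen on the high-fat values, and on chow their values lie between -0.62 and 1.59.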

How the data were processed

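RNA-seq of 21 mouse hearts was analysed. The authors deposited, for each library, estimated counts and TPM per transcript, per the file headers. The submitters' processing notes name Salmon 1.10.2, DESeq2 1.40.2 and builds GRCm38 and mm10. The annotation and options are not given in the sources used here.

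Transcripts were assigned to genes by the GENCODE M21 table. Of 119215 transcripts 97.95% matched, and the rest held 0.854% to 0.907% of the estimated reads in the 11 high-fat libraries. Gene values are rounded sums of the estimated counts, and the deposited TPM were summed likewise. Genes were kept by filterByExpr (15216 genes, 99.96% of reads), scaled by TMM (factors 0.886 to 1.09) and fitted in edgeR 4.0.16 (R 4.3.3) by the quasi-likelihood test, with 1 term per group over all 21 libraries and 17 residual degrees of freedom. The biological coefficient of variation was 0.154. Adjusted p-values are Benjamini-Hochberg over the 15216 genes, and the standard error is the absolute log2 fold change over the square root of F. CPM are TMM-normalized. The fit was tested on simulated data.

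The genes named by rule are the 15 largest rises and 15 largest falls among called protein-coding genes with a mean of at least 5 CPM over the 11 libraries and no overlap between groups, predicted gene models left out. One of these falls and some list members are not reported here. The groups, gene lists and rule were chosen with earlier results of these data known. Each library is a separate heart per the labels. Pairs within a group differed by more than sampling noise (chi-square per degree of freedom 4.98 to 55.6 over 25 pairs). Alternatives were DESeq2 1.42.0, limma 3.58.1 voom, other scalings, filters, covariates and sets of libraries. Depths limit counting error only. The authors' table of the whole series was not used here.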

Additional observations from a re-analysis of the deposited data

Results flagged for a closer look

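In 254 groups of 5 or 6 values examined for a library far from the rest of its group, 17 were found. By its critical value, the rule used marks about 1 in 20 groups by chance. The 2 groups of atrial scores were among them, with null-vector replicate 3 at 5.80 and renin replicate 3 at 5.44 on the log2 scale.

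Null-vector replicate 6 was the most frequent of these libraries. It was the lowest of its group for the adult myosin gene Myh6 (24933 CPM, while its Myh6 TPM was the highest of the group), the calcium pump gene Atp2a2 (7593 CPM), the Z-disc gene Myot (23.9 CPM) and the lipase gene Lipe (83.0 CPM), and the highest for Col3a1 (426 CPM). Null-vector replicate 3 was the highest for Cilp (20.8 CPM), Thbs4 (13.6 CPM) and Tgfb2 (16.3 CPM). In other null-vector libraries Stum stood apart in replicate 5 (5.84 CPM), Gpt in replicate 1 (24.6 CPM) and Bckdhb in replicate 4 (60.9 CPM).

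Among the renin libraries, replicate 1 stood apart for Arntl (7.63 CPM) and for the ribosomal protein gene Rpl3 (239 CPM). Replicate 4 stood apart for Cenpf (18.7 CPM) and for Col1a1 (272 CPM).

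Of 123 genes named with their values, 22 had a renin difference that differed between diets by the edgeR interaction test. Among all tested genes it was called for 1589 of 15216 (10.4%). Of the 123 genes 111 were called on the high-fat diet, and the interaction holds that difference, so this choice favours such calls. Larger on the high-fat diet, in log2 units, were Acta1 by 3.04, Aqp8 by 2.67, Xirp2 by 1.72, Nlrc3 by 1.67, Rcan1 by 1.33 and Col8a1 by 1.18 among the named rises. The kinase gene Uck2 had 1.03. Other genes of muscle structure and calcium storage were Flnc at 0.82, Casq2 at 0.72, Actc1 at 0.66, Myom1 at 0.48 and Des at 0.37. In matrix and TGF-beta genes the difference was 1.16 for Meox1, 1.16 for Tgfb2, 0.77 for Col4a1, 0.64 for Col4a2 and 0.63 for Tgfb3. Ace, the converting enzyme, had 0.67 and Gyg, the glycogen primer, 0.52. Negative values were those of Stum at -1.81, Penk at -1.44 and Selenbp1 at -0.61.

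Leaving out 1 library at a time ended the interaction call of Tgfb3 in 15 of 21 fits, of Aqp8 in 12, of Penk in 11, of Ace in 6, of Rcan1 in 5, of Myom1 and Col4a2 in 3 each, and of Nlrc3, Col8a1 and Meox1 in 1 each, without chow null-vector replicate 3. The other 12 of the 22 calls held in all 21 fits. The chow and the high-fat contrasts share no library, but the interaction is made of both.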

How the results depend on the processing

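The count of 1696 genes moved most with the clock score, with the chow libraries left out and with single high-fat libraries left out, in both directions. Adding the clock score to the fit left 0 calls, 0 higher and 0 lower (1009 at an unadjusted p under 0.05), and Arntl, one of the genes in that score, went from 0.62 to -0.049 on the log2 scale. The 11 high-fat libraries alone gave 549 calls, 324 higher and 225 lower, and in that fit 48 of the 111 called genes named with values did not pass: Nppb, Ces1d, Lgals4, Penk, Phkg1, Scara5, Nppa, Tcap, Mybpc3, Myh6, Kcnh2, Casq2, Hrc, Pln, Trdn, Col4a1, Col4a2, Timp1, Fbn1, Lipe, Plin5, Eci1, Rxra, Esrra, Gyg, Slc2a4, Pdk2, Eno3, Suclg1, Fh1, Arntl, Hlf, Cry2, Usp2, Tef, Egr3, Prc1, Mki67, Hsph1, Agtr1a, Hsd11b1, Herpud1, Cox6b2, Atp5e, Ndufa13, Rpl3, mt-Nd3 and Myl2. In limma voom Nppb, Ankrd2, Mybpc3, Arntl, Herpud1 and Cox6b2 did not pass, and with no filter on low counts Mybpc3, Kcnh2, Trdn, Lipe and Hsph1 did not. Without both atrial libraries Myot, Mybpc3 and Hsph1 were lost, with thinned libraries Ankrd2, Mybpc3 and Hsd11b1, and with upper-quartile factors Mybpc3 and Tgfb3. With a mean of at least 20 CPM required of each gene, Postn, Bdh1, Dbp and Per1 passed. Leaving out 1 high-fat library at a time gave 696 to 2394 calls, 376 to 1309 higher and 319 to 1085 lower. The remaining settings gave 1316 calls (no low-count filter) to 2176 (DESeq2). Upper-quartile factors gave 1730, 819 higher and 911 lower. Of the 111 genes 55 failed to pass in at least 1 setting other than the clock score, and 36, 21 and 32 without renin replicate 1, 2 and 5. The interaction gave 1481 to 1881 calls under other scaling, DESeq2 and the clock score, and 1220 to 1951 with 1 library left out. The cause of these changes was not tested.

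With the replicate number as a block 1578 genes were called, 1397 of them shared. Trdn, Esrra, Arntl and mt-Nd3 did not pass, Postn did (adjusted p 0.0218), and the cell cycle list had 10 higher calls. The numbers do not pair the samples: same-numbered libraries correlated at 0.12, 0.11, 0.35, -0.15 and 0.04 for replicates 1 to 5, and only replicates 1 and 3 correlated best with their own number.

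The difference in library total, 2.35 M reads, ran from 1.87 M to 3.39 M with 1 library left out. Its exact permutation p, here not adjusted over the 2 values, was under 0.05 without renin replicate 1 (p = 0.00952). The difference in mitochondrial read share, -2.45 percentage points, ran from -2.94 to -1.51. Its exact permutation p, likewise not adjusted, was under 0.05 without renin replicate 2 or 4 (p = 0.0476) or null-vector replicate 3 or 6 (p = 0.0397). Genes of a few reads, such as Ren1, were not measurable at this depth. The fits without replicate 3 of both groups, with thinned libraries (1557 calls) and of the interaction and the chow contrast with 1 library left out were chosen after seeing the data.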

Other observations

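Some gene lists not described above had calls close to the 11.1% of all tested genes. Of 78 mitochondrial ribosomal genes 3 were called higher and 7 lower, with a median log2 fold change of -0.02. With 1 library left out the calls ran from 0 to 4 higher and from 2 to 12 lower, fewest without renin replicate 1 or 5, and limma voom called 1 higher. Mrpl39 was lower at -0.35 and Mrps23 higher at 0.27 (edgeR adjusted p 0.00259 and 0.0414). Of 31 proteasome genes 3 were called, all higher: Psmd1 at 0.21, Psmd8 at 0.18 and Psmc6 at 0.16, and the list median was 0.04. They numbered 0 without renin replicate 1, 2 or 5 or null-vector replicate 3, 1 without null-vector replicate 6, 7 without renin replicate 4, 5 in DESeq2 and 1 in limma voom.

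Among 22 genes of the antioxidant response, Srxn1, which restores oxidized peroxiredoxin, was higher at 0.36 and Txnrd1, a thioredoxin reductase, at 0.19. Slc7a11, the cystine transporter, was lower at -0.65, with no overlap between groups, from a mean of 1.97 ± 0.115 CPM (SD, n = 6). The list median was 0.04. Higher calls in this list numbered 1 without renin replicate 1 or 2 and 4 without null-vector replicate 3, and lower calls 2 in DESeq2, in limma voom and without null-vector replicate 4. Grk5, a kinase that desensitizes G protein-coupled receptors, was the 1 call among 11 adrenergic genes, higher at 0.48 (edgeR adjusted p 0.0361), a call lost without renin replicate 1, 2, 4 or 5 or null-vector replicate 2, 3, 4, 5 or 6. Lower calls among the 11 numbered 2 in DESeq2 and 3 without renin replicate 4. Beside Aqp8, the aquaglyceroporin gene Aqp7 was called among 5 aquaporins, lower at -0.43 (edgeR adjusted p 0.0330, lost without renin replicate 1, 2 or 5 or null-vector replicate 2 or 6), and Aqp1 did not pass at -0.24.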
